A study of Homo sapiens with 2 samples.

Results

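Translation initiation factors are the proteins that load the initiator tRNA and the mRNA onto the small ribosomal subunit, find the start codon and join the large subunit. Their transcripts were followed in Huh7 cells, an established human liver cancer line of hepatocyte origin and well differentiated type, in scarce and in abundant glucose. The members were the gene entries whose symbol begins with EIF and a digit from 1 to 6, without the EIF2AK kinases and without antisense, pseudogene and readthrough symbols. The 3 EIF4EBP repressors were kept although their symbols end in P and a digit, as pseudogene symbols do. This gave 51 members of 25343 gene entries, and 47 of them had a mean of at least 1 TPM over both libraries and entered the comparison. TPM is a transcript level that corrects for length and sums to 1000000 in each library, so levels of different genes can be set side by side.

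The cells were kept in medium with 0.45 g/L glucose (low glucose) or, for comparison, with 4.5 g/L (high glucose). All cells were seeded at 500000 per well, received their medium the next day and were kept in it for 6 days, and live cells were reseeded whenever the culture became dense, per the labels' protocols. Each medium is represented by 1 library of the same line, so there is no measure of variation between cultures, no difference below has a replicate check, and no p-value is given. The number of reads is not in the values, so the depth was not determined. TPM is a share of the RNA of a whole culture, so a lower level in every cell cannot be told apart from fewer cells with a high level. The 8 hepatocyte markers checked stood between 154 and 16441 TPM in low glucose and between 211 and 20859 TPM in high glucose. Of these, 6 were lower in low glucose and 2 higher, and TTR, at 682 TPM in low glucose and 1351 TPM in high glucose, was the furthest apart. The 6 markers of blood, endothelial and stromal cells did not exceed 4.03 TPM in low glucose or 2.09 TPM in high glucose, and the stromal COL1A1 stood at 4.03 TPM in low glucose and 1.06 TPM in high glucose. The part of these marker differences in the results was not tested.

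In cap-dependent initiation, the eIF4F complex (the cap binder eIF4E, the scaffold eIF4G and the helicase eIF4A) recruits the mRNA, and the EIF4EBP proteins block it by occupying the eIF4G site on eIF4E. They do so when the kinase mTOR, which is active in well fed cells, no longer phosphorylates them. The second control point is eIF2, which carries the initiator tRNA: stress kinases phosphorylate its alpha subunit, which then traps the exchange factor eIF2B and slows most initiation while favouring a few mRNAs such as that of ATF4. Both controls act on proteins and leave no direct trace in transcript levels.

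The transcript levels of the initiation machinery were close in the 2 media, and the largest differences lay among the cap binder and its repressors. EIF4EBP3, a repressor of low level, was the only member at least 2-fold apart, standing at 6.27 TPM in low glucose and 1.52 TPM in high glucose. It shares reads with a readthrough entry, and the sum of both stood at 22.2 TPM in low glucose and 18.95 TPM in high glucose, within 2-fold. EIF4EBP1, the most abundant repressor, was higher in low glucose (385 TPM, against 260 TPM in high glucose), while EIF4EBP2 was lower (45.8 TPM, against 80.9 TPM). EIF4E, the cap binder that they occupy, was lower as well (24.9 TPM in low glucose, against 41.1 TPM in high glucose). The subunits of eIF3 and eIF2B were all within 1.5-fold.

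Each difference is the log2(TPM + 1) in low glucose minus that in high glucose, a scale on which scarce transcripts appear closer than they are. Over the 47 members compared, the median difference was -0.03, with 25th and 75th percentiles of -0.23 and 0.14. Over all 13745 genes of at least 1 TPM the median was 0.05 and these percentiles were -0.23 and 0.35. Of the members, 19 lay above 0 and 28 below (59.6%), where 45.3% of all genes compared lay below 0. At least 2-fold higher was 1 member (2.13%), where the share of all genes compared was 3.65%. At least 2-fold lower were 0 members, against 1.10% of all genes. At a threshold of 1.5-fold, 1 member was higher and 2 were lower (4.26%), where all genes gave 13.0% and 6.07%. The members' shares past these 2 thresholds were thus at or below those of all genes in each direction. A difference smaller than 0.5 was found in 41 members (87.2%) and in 74.4% of all genes compared. Together the 51 members held 10223 TPM in low glucose (1.02% of the library) and 10691 TPM in high glucose (1.07%).

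**Figure D1:**
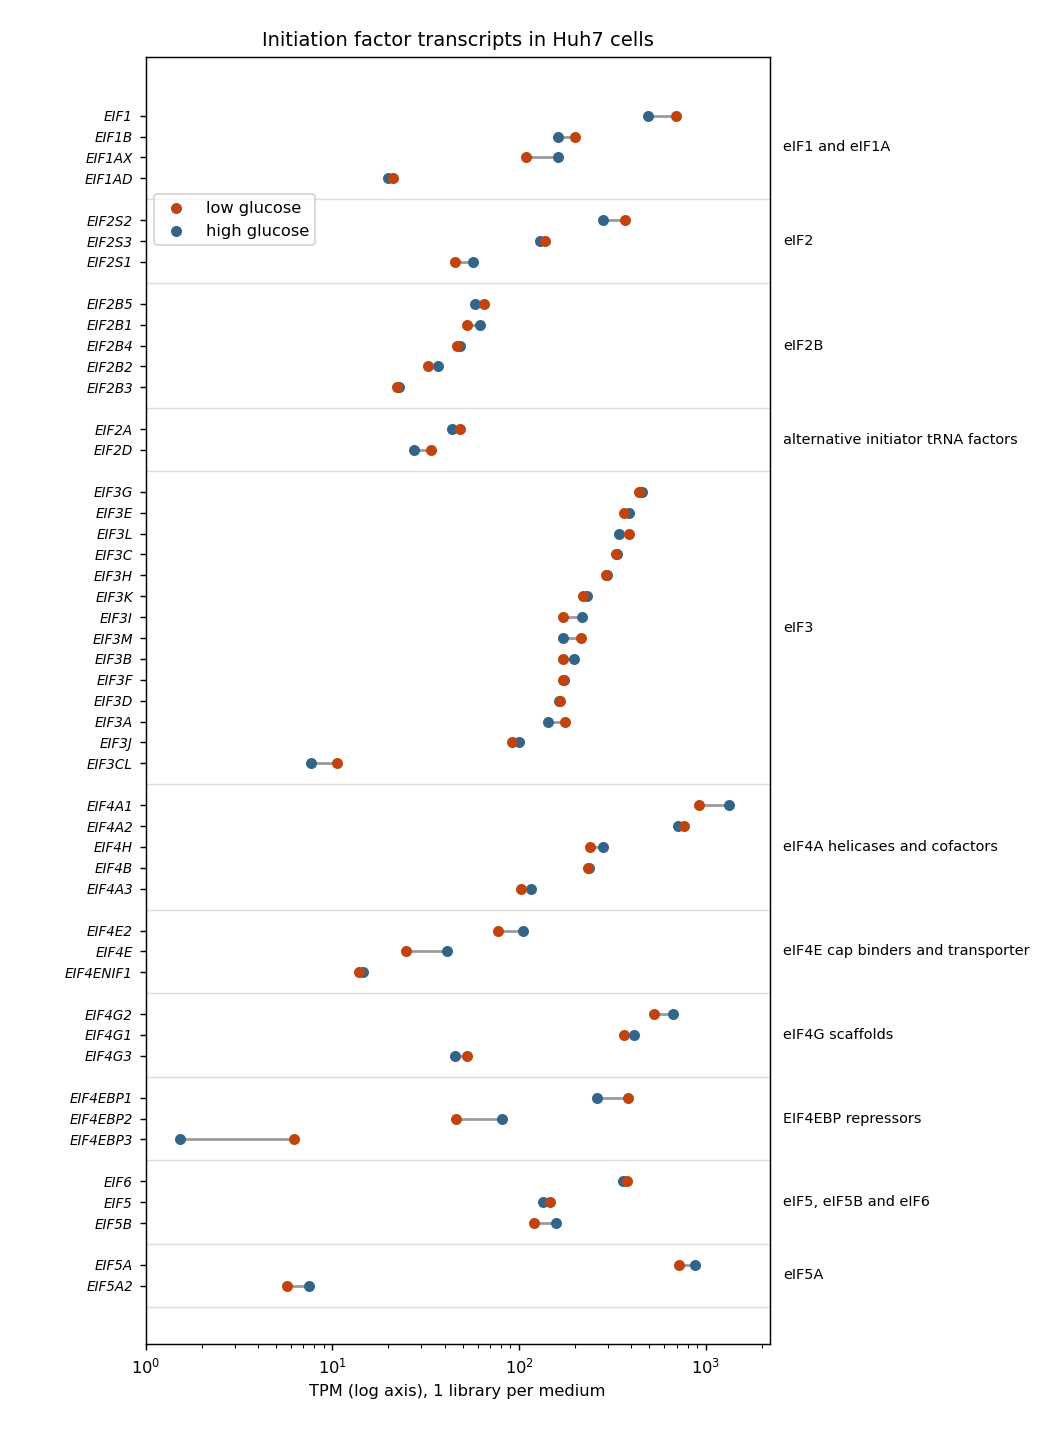
TPM on a log axis (horizontal) of each of the 47 members compared (rows, by factor group and by mean level within it), in the low glucose library (red) and the high glucose library (blue), joined by a grey line. The points nearly coincide for most eIF2B and eIF3 subunits, and the longest line is that of EIF4EBP3 (6.27 TPM in low glucose and 1.52 TPM in high glucose).

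The repressors of eIF4E are shown first, with the sequence before the RefSeq start of the pair that lay furthest apart, EIF4EBP3 and EIF4EBP2. The windows and motifs were chosen after the values were seen. Capitals mark CACGTG, the E-box, a palindrome bound by MYC and by the starvation-linked factors TFEB and TFE3. As background, EIF4EBP3 has been described as a TFE3 target during prolonged mTOR inhibition, and EIF4EBP1 as an ATF4 target in mouse pancreatic beta cells. The lines below are the 250 bases before the start (GRCh38.p14, plus strand), at chr5:140547412-140547661 for EIF4EBP3 and chr10:70403895-70404144 for EIF4EBP2.
EIF4EBP3: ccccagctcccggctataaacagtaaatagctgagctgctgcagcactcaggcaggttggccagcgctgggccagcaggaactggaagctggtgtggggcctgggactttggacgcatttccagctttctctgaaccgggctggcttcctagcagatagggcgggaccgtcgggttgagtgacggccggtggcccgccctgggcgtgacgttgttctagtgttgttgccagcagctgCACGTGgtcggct
EIF4EBP2: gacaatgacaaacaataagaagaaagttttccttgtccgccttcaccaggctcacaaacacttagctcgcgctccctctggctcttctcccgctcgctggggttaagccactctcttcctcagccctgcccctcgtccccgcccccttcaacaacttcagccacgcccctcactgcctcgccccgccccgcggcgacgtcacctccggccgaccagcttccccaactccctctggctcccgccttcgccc
The EIF4EBP3 window holds 1 such motif, which begins 13 bases before the start, and these letters are not in the EIF4EBP2 window.

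The EIF4E window holds the motif at 2 places, 225 and 72 bases before the start, in a stretch that GENCODE annotates as transcribed. They are shown with 30 bases each from the minus strand (chr4:98929341-98929370 and chr4:98929188-98929217, GRCh38.p14), because EIF4E is the target of the repressors and differed in the opposite direction from EIF4EBP1 and EIF4EBP3.
EIF4E, distal: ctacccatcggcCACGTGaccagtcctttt
EIF4E, proximal: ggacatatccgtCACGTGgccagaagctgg
RefSeq windows were matched for 43 of the 51 members and 39 of the 47 compared. Counting 250 bases before each start and both strands, CACGTG was found in 11 of these 39 (28.2%), in 11.1% of 9918 matched genes of at least 1 TPM and in 6.34% of all 35116 windows. The members are more abundant than most genes, and the share among genes of like level was not determined. The 11 were EIF1B, EIF2B3, EIF3F, EIF3K, EIF4A3, EIF4B, EIF4E, EIF4EBP3, EIF4G1, EIF4H and EIF5A2. All 11 were at the level compared, 2 of them above 0 (EIF4EBP3 and EIF1B) and 9 below, where 45.3% of all genes compared lay below 0. Several of the 9 were near 0: EIF4B (-0.01), EIF2B3 (-0.03), EIF3F (-0.03) and EIF3K (-0.08). With the median of genes of like level subtracted, as described below, EIF3F, EIF3K and EIF4B lay above 0. Among the 47 members compared 19 lay above and 28 below, but 8 of these 47 had no matched window and were not searched. The differences of the 11 ran from -0.70 (EIF4E) to 1.53 (EIF4EBP3, a value made uncertain by shared reads, as described below). The composite element TGATGNAAN, which ATF4 binds with C/EBP partners, was found in 0 of the 39 members compared, in 2.41% of the matched genes of at least 1 TPM and in 3.13% of all windows. Among the members below that level it was found in EIF4E3. The motifs overlap nowhere in the printed sequences, and a match describes letters, not a bound site. EIF2S2, EIF3A, EIF3CL, EIF3L and EIF4EBP1, all above 0, and EIF3E, EIF3G and EIF3H, all below 0, were not matched.

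EIF4EBP1 (chromosome 8, 37888020 to 37917883, hg19) had a difference of 0.56. It was the 8th most abundant member in low glucose and the 15th in high glucose. Among genes of like level (all genes compared, in 20 groups by mean TPM), its difference lay at the 89.4th percentile. EIF4EBP2 (chromosome 10, 72163861 to 72188374) had a difference of -0.81, the lowest of the members compared, at the 3.06th percentile of its level group. It encodes a repressor of the same mode of action. The ratio of EIF4EBP1 to EIF4EBP2 transcripts was 8.40 in low glucose and 3.22 in high glucose.

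EIF4EBP3 (chromosome 5, 139927251 to 139929163) had a difference of 1.53, at the 98.8th percentile of its level group. Its interval lies inside the readthrough entry ANKHD1-EIF4EBP3, which stood at 15.9 TPM in low glucose and 17.4 TPM in high glucose, so the authors' tool had to divide reads between the entries. The sum of both entries had a difference of 0.22, and the separate level of EIF4EBP3 is uncertain. With a pseudocount of 5 the difference of EIF4EBP3 was 0.79, short of 2-fold. By its separate entry EIF4EBP3 made up a small part of the repressor pool, with 0.0163 transcripts for each of EIF4EBP1 in low glucose and 0.00584 in high glucose. The sum with the readthrough entry was 22.2 TPM in low glucose and 18.95 TPM in high glucose, beside 385 and 260 TPM of EIF4EBP1. The contrast between the media in these 2 ratios therefore rests on the uncertain separate entry.

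The cap binders were lower. EIF4E (chromosome 4, 99799607 to 99851786) had a difference of -0.70, at the 3.20th percentile of its level group. EIF4E2, a cap-binding homologue that does not bind eIF4G and acts as a repressor, stood at 77.4 TPM in low glucose and 104.9 TPM in high glucose (-0.43). EIF4ENIF1, the transporter that takes eIF4E into the nucleus, was nearly level at 13.9 TPM in low glucose and 14.7 TPM in high glucose. EIF4E3 (0.54 TPM in low glucose and 0.50 TPM in high glucose) and EIF4E1B, which was listed at 0 in low glucose and at 0.04 TPM in high glucose, lay below the level compared.

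Set against each other, the repressor transcripts outnumbered those of their target in both media. The 3 EIF4EBP genes summed to 437 TPM in low glucose and 343 TPM in high glucose, a ratio of 1.27. For each EIF4E transcript there were 17.6 EIF4EBP transcripts in low glucose and 8.35 in high glucose, so that this ratio was 2.10 times as high in low glucose. Most of these repressor transcripts were of EIF4EBP1, with 15.5 for each EIF4E transcript in low glucose and 6.34 in high glucose. Both sides of the ratio differed between the media: low over high glucose gave 1.27 for the summed repressors and 0.605 for EIF4E. EIF4EBP2 kept nearly the same ratio to EIF4E (1.84 in low glucose and 1.97 in high glucose). These are ratios of mRNA and say nothing of the amounts or the phosphorylation of the proteins.

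**Figure D2:**
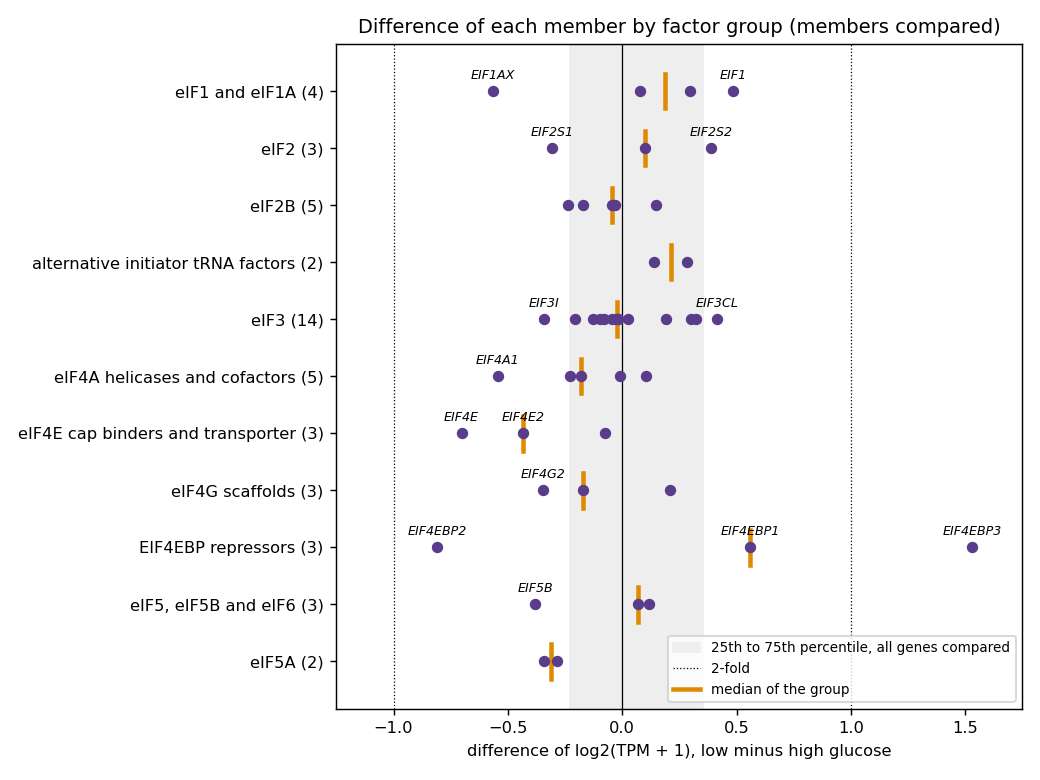
Low minus high glucose difference of log2(TPM + 1) (horizontal), for each member compared (points) by factor group (rows, with the number of members compared), with the group median as an orange bar, 2-fold as dotted lines and the 25th to 75th percentile of all genes compared in grey. The EIF4EBP row is the widest, running from -0.81 to 1.53, and all 3 points of the eIF4E row lie below 0.

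The other parts of eIF4F differed by less than EIF4E, and in both directions. EIF4A1 (chromosome 17, 7476024 to 7482324), the main helicase that unwinds the mRNA before scanning, was the most abundant member in both media. It stood at 920 TPM in low glucose and 1341 TPM in high glucose, a difference of -0.54 at the 15.3rd percentile of its level group. Its interval lies inside the readthrough entry SENP3-EIF4A1, which held only 0.69 TPM in low glucose and 0.36 TPM in high glucose. The paralogue EIF4A2 was nearly level (766 TPM in low glucose and 713 TPM in high glucose). The ratio of EIF4A1 to EIF4A2 was therefore 1.20 in low glucose and 1.88 in high glucose. The exon junction helicase EIF4A3 stood at 102 TPM in low glucose and 116 TPM in high glucose. Of the helicase cofactors, EIF4B was level at 235 TPM in low glucose and 237 TPM in high glucose, and EIF4H stood at 239.8 TPM in low glucose and 281 TPM in high glucose.

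Among the scaffolds, EIF4G1, the main eIF4G, stood at 365 TPM in low glucose and 411 TPM in high glucose. Its difference of -0.17 lay at the 46.4th percentile of its level group. EIF4G2 (DAP5), which lacks the eIF4E-binding part and serves cap-independent initiation, stood at 526 TPM in low glucose and 669.6 TPM in high glucose (-0.35). EIF4G3 went the other way at 52.6 TPM in low glucose and 45.4 TPM in high glucose (0.21). The helicase group summed to a ratio of 0.842 between low and high glucose, and the scaffolds to 0.839. The cap binder group, which includes EIF4E2 and EIF4ENIF1, summed to 0.724, and EIF4E alone had a ratio of 0.605. In both media EIF4E was the scarcest of the main eIF4F transcripts, with 14.7 EIF4G1 and 37.0 EIF4A1 transcripts for each of EIF4E in low glucose and 10.01 and 32.7 in high glucose.

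The factors that govern start codon scanning were split. EIF1 (chromosome 17, 39845127 to 39847898), which keeps the ribosome from starting at poor sites, stood at 689 TPM in low glucose and 493 TPM in high glucose. Its difference of 0.48 lay at the 87.5th percentile of its level group. The close paralogue EIF1B stood at 198 TPM in low glucose and 161 TPM in high glucose (0.30). EIF1AX (X chromosome, 20142636 to 20159966), the eIF1A of the same scanning complex, was lower at 109 TPM in low glucose and 161 TPM in high glucose, a difference of -0.57. There were 6.34 EIF1 transcripts for each of EIF1AX in low glucose and 3.05 in high glucose. EIF1AY, the near-identical copy on the Y chromosome, was almost silent (0.08 TPM in low glucose and 0.13 TPM in high glucose). EIF1AD, named for an eIF1A-like domain, stood at 21.1 TPM in low glucose and 19.95 TPM in high glucose. EIF5, which triggers GTP hydrolysis on eIF2 at the start codon and counteracts EIF1, was close to level (147 TPM in low glucose and 135 TPM in high glucose).

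The subunits of eIF2, which assemble as equal parts of the protein complex, were unequal in transcript level and in their differences. EIF2S1, the alpha subunit that the stress kinases phosphorylate, stood at 45.4 TPM in low glucose and 56.4 TPM in high glucose (-0.31). EIF2S2 (chromosome 20, 32676115 to 32700085), the beta subunit, stood at 372 TPM in low glucose and 283 TPM in high glucose (0.39). EIF2S3, the GTP-binding gamma subunit, stood at 138 TPM in low glucose and 129 TPM in high glucose (0.10). The ratio of EIF2S2 to EIF2S1 was thereby 8.19 in low glucose and 5.02 in high glucose.

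The exchange factor eIF2B, which recharges eIF2 with GTP and is the part trapped under stress, differed little. Its 5 subunits summed to 218 TPM in low glucose and 228 TPM in high glucose, with differences between -0.24 and 0.15. Of the regulatory subunits, EIF2B1 stood at 52.4 TPM in low glucose and 61.9 TPM in high glucose. EIF2B2 stood at 32.5 TPM in low glucose and 36.8 TPM in high glucose, and EIF2B4 at 46.5 TPM in low glucose and 48.0 TPM in high glucose. The catalytic epsilon subunit EIF2B5 was the only one above 0 (64.7 TPM in low glucose and 58.4 TPM in high glucose), and its partner EIF2B3 was level at 22.2 TPM in low glucose and 22.7 TPM in high glucose. EIF2A and EIF2D, which can deliver initiator tRNA without eIF2, were slightly higher. EIF2A stood at 48.2 TPM in low glucose and 43.7 TPM in high glucose, and EIF2D at 33.7 TPM in low glucose and 27.5 TPM in high glucose (0.28).

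The large scaffold eIF3, which holds the other factors on the small subunit, had the summed level closest to equal of the factor groups. Its 14 entries summed to 3215 TPM in low glucose and 3228 TPM in high glucose, a ratio of 0.996, with a median difference of -0.02. Its single differences ran from -0.34 to 0.41, a wider range than that of eIF2B. Of these entries 5 lay above 0 and 9 below. With the median of like level genes subtracted, EIF3C, EIF3E, EIF3F, EIF3G, EIF3H and EIF3K turned from below 0 to above it. Within the octamer that forms the body of the complex, EIF3A (177 TPM in low glucose and 144 TPM in high glucose) and EIF3M (215 TPM in low glucose and 172 TPM in high glucose) were the highest in difference, at 0.30 and 0.32. EIF3L stood at 391 TPM in low glucose and 342 TPM in high glucose (0.19). The other octamer genes EIF3C, EIF3E, EIF3F, EIF3H and EIF3K lay between -0.10 and -0.02.

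The module of EIF3B, EIF3G and EIF3I, which sits near the mRNA channel, was below 0 in all 3 genes. With the median of like level genes subtracted, EIF3G lay above 0 (0.10), and EIF3B (-0.04) and EIF3I (-0.18) stayed below. EIF3I stood at 173 TPM in low glucose and 219 TPM in high glucose (-0.34), the lowest eIF3 difference, and EIF3B at 171 TPM in low glucose and 198 TPM in high glucose (-0.21). EIF3G, the most abundant eIF3 transcript, was nearly level at 440.3 TPM in low glucose and 454 TPM in high glucose. The module summed to a ratio of 0.901, and the octamer to 1.04. EIF3D, which can bind caps itself, stood at 166 TPM in low glucose and 163 TPM in high glucose. The loosely bound EIF3J was the scarcest entry apart from EIF3CL, at 91.99 TPM in low glucose and 100.5 TPM in high glucose. EIF3C and EIF3CL are near-identical copies that share reads, so the 10.6 TPM of EIF3CL in low glucose and 7.72 TPM in high glucose are uncertain. Their sum was level at 342 TPM in low glucose and 344 TPM in high glucose.

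**Figure D3:**
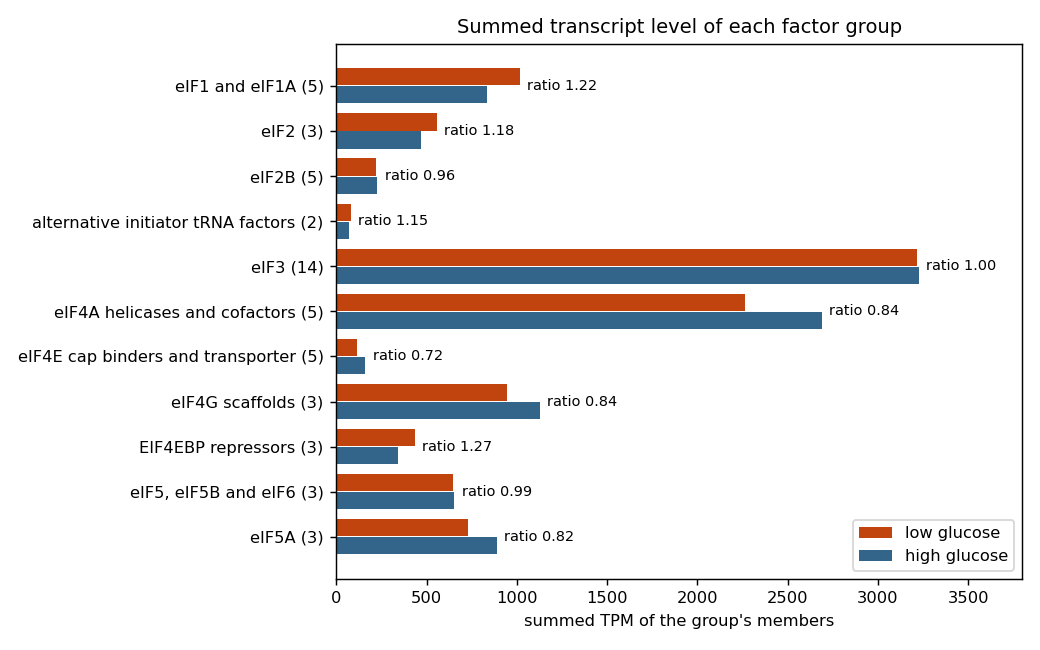
Summed TPM (horizontal, from 0) of all members of each factor group (rows, with the number of members), in the low glucose library (red, upper bar) and the high glucose library (blue, lower bar), with the ratio of low over high glucose. The EIF4EBP repressors have the highest ratio (1.27), the group of cap binders and EIF4ENIF1 the lowest (0.72), and eIF3 is level.

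At the last step, EIF5B, the GTPase that joins the large subunit, stood at 121 TPM in low glucose and 158 TPM in high glucose (-0.38). EIF6, which keeps free large subunits from joining too early, stood at 379 TPM in low glucose and 361 TPM in high glucose. EIF5A, which carries the modified residue hypusine and helps ribosomes through difficult stretches, was the third most abundant member in low glucose (722 TPM, against 881 TPM in high glucose, -0.29). Its paralogue EIF5A2 was scarce and also lower (5.72 TPM in low glucose and 7.51 TPM in high glucose, -0.34). The intronless copy EIF5AL1 was almost silent at 0.04 TPM in low glucose and 0.05 TPM in high glucose.

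The members are abundant genes, and abundant genes as a whole were lower in low glucose. Of the 47 compared, 28 belonged to the 2 most abundant of the 20 level groups (at least 124 TPM), where the median difference of all genes was -0.15. With the median of the level group subtracted, the members' median was 0.06, with 26 members above 0, 20 below and 1 at 0. The differences of EIF4EBP1 (0.70), EIF4EBP2 (-0.73), EIF4E (-0.76), EIF1 (0.62), EIF1AX (-0.40) and EIF4A1 (-0.40) kept their directions. The 7 members that changed sign, all to above 0, were EIF3C, EIF3E, EIF3F, EIF3G, EIF3H, EIF3K and EIF4B. The members' median thus changed sign between these forms of the comparison. EIF4EBP3 alone lay outside the central 95% of its level group, and summed with its readthrough entry (0.22) it lay inside, at the 64.3rd percentile.

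**Figure D4:**
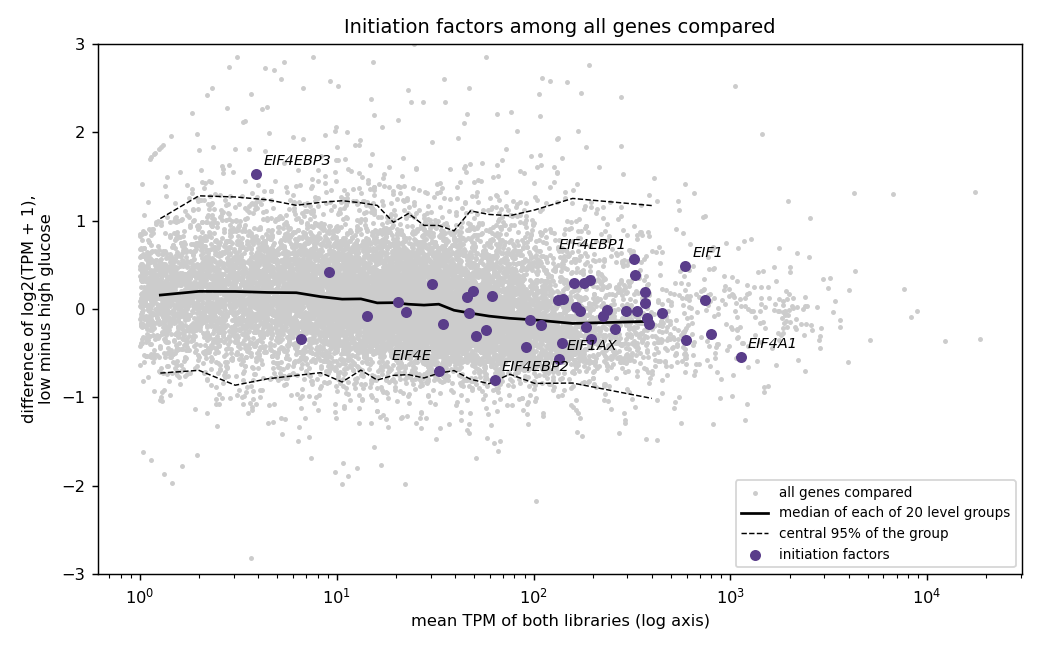
Low minus high glucose difference of log2(TPM + 1) (vertical, drawn from -3 to 3, which leaves 16 genes outside), against the mean TPM of both libraries (horizontal, log axis) for all 13745 genes compared (grey) and the 47 members (purple). The solid line is the median of each of 20 level groups and the dashed lines bound its central 95%. EIF4EBP3 lies above the upper dashed line, and EIF4EBP2 and EIF4E lie close to the lower one.

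Related genes of translation were taken from 8 lists, whose counts are again to be read against 3.65% and 1.10% of all genes. The list of kinases and phosphatase subunits of eIF2 alpha also held IMPACT, NCK1 and DNAJC3. Its median was 0.46 over 9 genes, which is the value of IMPACT, with 1 gene at least 2-fold higher and 0 lower. That gene was PPP1R15A (GADD34), which directs the phosphatase to eIF2 alpha, at 295 TPM in low glucose and 53.6 TPM in high glucose (2.44). The kinase EIF2AK1 stood at 60.9 TPM in low glucose and 80.3 TPM in high glucose (-0.39). EIF2AK3 (PERK, the kinase of the endoplasmic reticulum), named after its values were seen, was higher at 39.1 TPM in low glucose and 20.7 TPM in high glucose (0.89). The kinases EIF2AK2 and EIF2AK4 were lower (-0.27 and -0.17), so EIF2AK3 was the only kinase of eIF2 alpha that was higher. The list of cytosolic aminoacyl-tRNA synthetases, which also held AIMP1 and AIMP2, had a median of 0.30 over 22 genes. Of these 1 was at least 2-fold higher, CARS (94.2 TPM in low glucose and 39.4 TPM in high glucose), and 0 lower. AARS, the most abundant, stood at 495 TPM in low glucose and 271 TPM in high glucose (0.87), and KARS at 239.6 TPM in low glucose and 289.6 TPM in high glucose (-0.27).

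None of the other lists held a gene past 2-fold in either direction. The list of signalling to eIF4E and eIF4B had a median of 0.02 over 17 genes, and its most abundant genes, the kinases RPS6KA3 and RPS6KB2, had differences of -0.54 and -0.20. The list of poly(A) binding proteins and partners had a median of -0.09 over 6 genes, among them PABPN1 and the partners PAIP1, PAIP2 and PAIP2B. PABPC1, which links the tail of the mRNA to eIF4G, stood at 1329 TPM in low glucose and 1104 TPM in high glucose (0.27). PABPC4 was level (0.02). Accessory and recycling factors had a median of -0.26 over 14 genes, with BZW1 at -0.40 and the helicase DDX3X at -0.58. The list of elongation factors, which also held EEF2K, DPH1, DPH2, DHPS and DOHH, had a median of -0.07 over 13 genes. EEF1A1, which brings tRNAs to the elongating ribosome, stood at 4526 TPM in low glucose and 5777 TPM in high glucose (-0.35), and EEF1G was level (-0.01). Termination factors had a median of -0.25 over 4 genes, with ETF1 at -0.30 and GSPT1 at -0.59. Mitochondrial translation factors had a median of -0.17 over 10 genes, with TUFM at 0.05 and MTIF2 at 0.11.

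**Figure D5:**
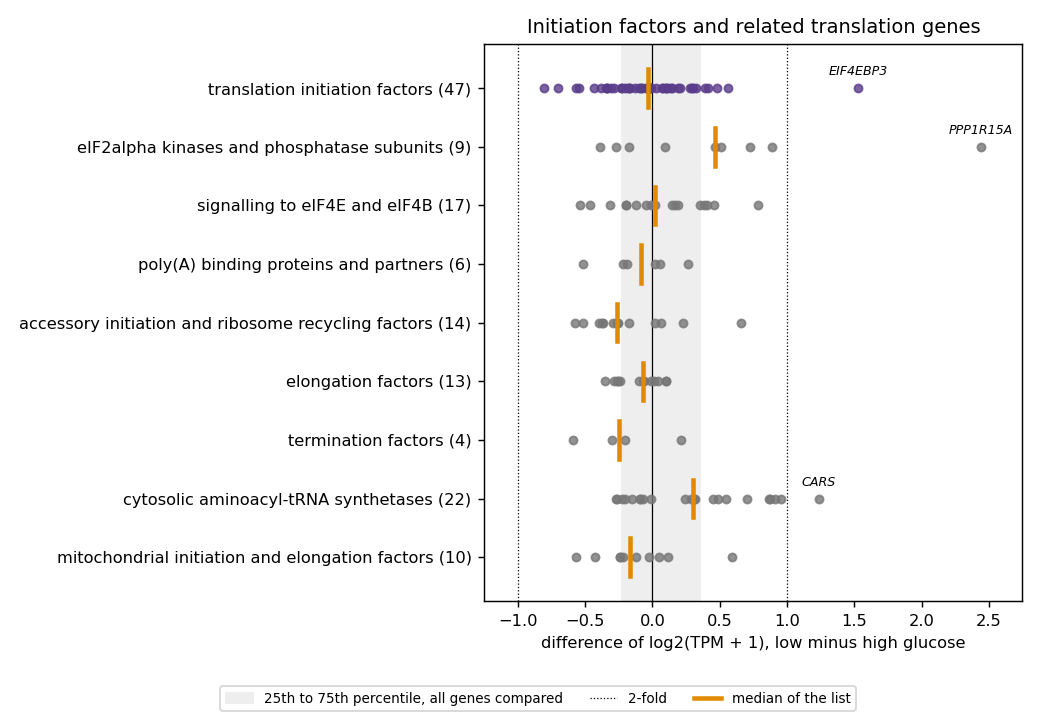
Low minus high glucose difference of log2(TPM + 1) (horizontal), for the initiation factors (purple, top row) and 8 lists of related translation genes (grey points, with the number of genes compared), with list medians in orange, 2-fold as dotted lines and the 25th to 75th percentile of all genes compared in grey. Past 2-fold are EIF4EBP3, PPP1R15A and CARS, all of them higher in low glucose.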

How the data were processed

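RNA of Huh7 cells was sequenced as 1 library per medium. The values deposited by the authors are TPM per gene, named so per the file headers. Per the submitters' processing notes, adapters were trimmed with cutadapt, abundance was estimated with RSEM 1.2.21, which shares out reads that fit more than 1 gene, and the genome build was hg19. Aligner, annotation, filters and strandedness: not given in the sources used here. Without read numbers no counting interval can be given.

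From these values log2(TPM + 1) in low glucose minus that in high glucose was computed for entries with a mean of at least 1 TPM, and a member counted as past 2-fold at 1 or more or -1 or less. With 1 library per medium no test is possible. The members, factor groups and related lists were chosen with earlier results of these data known. All members are named or counted, and for each related list at least the 2 most abundant genes and up to 3 past 2-fold are named. Genes were grouped by mean TPM into 20 equal groups for level comparisons. A member was taken to share reads where a near-identical copy was measured or at least 50% of its interval lay in another entry no longer than 1 Mb. Promoter windows are RefSeq's (GRCh38.p14), matched by symbol, and gene coordinates are those of the hg19 intervals in the files. The procedure was tested on simulated data, with seeded differences larger than 2-fold in genes of at least 10 TPM and without shared reads. This setting does not cover EIF4EBP3, which has a lower level and shares reads. Alternatives were 4 scalings, pseudocounts of 0.1 and 5, 2 filters on level, thresholds of 1.5-fold and 3-fold, level correction, leaving out genes that share reads and, chosen after the data were seen, 2 readings of the EIF4EBP entries and the 1 Mb limit. Python 3.11.15, numpy 2.4.6, pandas 2.3.3 and matplotlib 3.10.9 were used.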

Additional observations from a re-analysis of the deposited data

How the results depend on the processing

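The count of members at least 2-fold higher in low glucose rests on EIF4EBP3 alone. It was 0 with a pseudocount of 5, at a 3-fold threshold, and with EIF4EBP3 summed with its readthrough entry. The count was also 0 among genes of at least 10 TPM, without genes that share reads and without the EIF4EBP repressors. Those settings leave EIF4EBP3 out, so their count could not be otherwise. The count stayed at 1 under the 4 scalings, a pseudocount of 0.1, no filter on level, a 1.5-fold threshold and level correction. The difference of EIF4EBP3 was 0.79 with a pseudocount of 5 and 0.22 in the summed form. The count of members at least 2-fold lower was 0 in every alternative except the 1.5-fold threshold, where it was 2 (EIF4EBP2 and EIF4E). The members' median lay between -0.12 (trimmed-mean scaling) and 0.06 (level correction). The scalings moved the median of all genes to between -0.03 and 0.08. A scaling turned the sign of 7 members, all within 0.08 of 0, and level correction that of 7 members within 0.10 of 0. No other member crossed 2-fold under the scalings, pseudocounts or level correction. No paired analysis was possible because each medium has 1 library. With the depth unknown, the precision of members of low level, EIF4EBP3 included, was not determined.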
